A study of Mus musculus with 586 samples.

Results

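Id1, Id2, Id3 and Id4 encode the inhibitor of DNA binding (ID) proteins, and their rows were taken by symbol from every table, 4 genes of 23361. The libraries came from wild-type C57BL/6 mouse embryos that were cryosectioned from the distal tip upwards and laser-dissected into small groups of cells by region (Geo-seq). The embryos ran from before gastrulation (E5.5, 2 embryos; E6.0, 2 embryos) through its early stage (E6.5, 6 embryos) and middle stage (E7.0, 2 embryos) to its late stage (E7.5, 6 embryos). Of 586 samples, 473 libraries could be assigned to a table column. No embryo was treated or mutant, so each comparison is between positions within an embryo or between stages. Region codes were read as in the published atlas: A and P are anterior and posterior epiblast, EA and EP endoderm, M, MA and MP mesoderm, and L and R lateral epiblast. At E7.5 the A libraries came from 6 embryos and the P libraries from 4, because embryos 1 and 2 had mapped columns only for A.

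ID proteins are helix-loop-helix factors without a DNA-binding region. They pair with the E proteins (Tcf3, Tcf4, Tcf12) and keep them from joining tissue-specific partners on DNA. In the gastrulating mouse embryo, bone morphogenetic protein (BMP) ligands from the extra-embryonic ectoderm next to the proximal epiblast act through receptors and SMAD1 and SMAD5. Id1, Id2 and Id3 are widely used as early transcriptional responses to that signal.

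The sequence before the start of Id2, Id3 and Id4 is shown, and that of Id1 was not analysed here. These windows were searched for GC-rich SMAD1 and SMAD5 sites (GGCGCC) and SMAD4 sites (CAGAC, or GTCTG on the other strand). Whether any match acts in the BMP response of these genes was not tested. The sequences are from RefSeq on GRCm38.p6, and capitals mark matches within the 250 bases before the start site. Only bases outside annotated exons are printed for Id2 and Id4. For Id3 a stretch around each match is printed.
Id2, chr12:25096254-25096342, minus strand: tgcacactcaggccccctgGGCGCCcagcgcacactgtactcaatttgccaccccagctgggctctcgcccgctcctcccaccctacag
Id3, chr4:136143643-136143672, plus strand: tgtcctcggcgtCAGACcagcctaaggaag
Id3, chr4:136143742-136143771, plus strand: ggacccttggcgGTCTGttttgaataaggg
Id4, chr13:48260926-48261015, plus strand: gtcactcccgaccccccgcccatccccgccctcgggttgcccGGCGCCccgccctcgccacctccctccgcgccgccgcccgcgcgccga

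The palindromic GGCGCC began 231 bases before the start of Id2 and 148 bases before that of Id4. In Id3, CAGAC began 167 and GTCTG 68 bases before the RefSeq start. All 250 bases of the Id3 window lie within annotated exons, and both printed stretches lie inside the gene coordinates given for Id3 below, so they are transcribed sequence in that annotation. Of the Id2 window 161 bases lie within annotated exons, and of the Id4 window 0. The printed Id2 stretch also lies inside the gene coordinates given for Id2 below, between annotated ends of that gene and not before it. Only the Id4 stretch lies outside the coordinates of its gene. GGCGCC is present in 9.59% of 32851 mouse windows of the same 250 bases, and CAGAC or GTCTG in 42.2%, so neither match is rare. The window of GC-rich Id4 is 75.6% G or C, and those of Id2 and Id3 are both 62.8%. A match of letters shows no binding.

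All values are FPKM (fragments per kilobase of transcript, scaled to the size of the library), so levels of different genes can be compared per length. The FPKM sum still differed between libraries, from 53064 to 1806706. Slopes and differences between regions used FPKM as deposited, so a change shared by all genes of a library is part of them. Id3 (chromosome 4, 136143497 to 136145755, GRCm38) was the most abundant, with a median of 123 FPKM and values above 0 in 465 of 473 libraries. Id1 (chromosome 2, 152736251 to 152737410) had a median of 16.5 FPKM, and Id2 (chromosome 12, 25093799 to 25097140) one of 14.0 FPKM. Id4 (chromosome 13, 48261228 to 48266026) was above 0 in 192 libraries and reached at most 10.6 FPKM. The highest single values were 289 FPKM for Id1 (A, section 6, E6.5 embryo 3), 330 FPKM for Id2 (P, section 5, E6.0 embryo 1) and 957 FPKM for Id3 (lateral code R2, section 9, E7.5 embryo 3).

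Median depth per embryo, estimated from the smallest values, was 2140000 to 10300000 reads, and libraries held 2683 to 11319 genes at 1 FPKM or more. E6.5 embryos 5 and 6, E7.0 and E7.5 embryos 4 to 6 were among the shallower ones. Epiblast genes marked the A and P libraries at E6.5, where their summed level was 281 to 1722 FPKM at the distal end. Visceral endoderm genes summed to 2471 FPKM or more at the proximal end of EP, and to 1118 FPKM or less there in A and P at E6.5 and E7.5. EA was not set apart in this way, as its lowest proximal sum at E6.5 also lay under 1118 FPKM. The sums of A and P at E7.0 are not given here. In such dissected samples, fewer cells of a type and less RNA per cell cannot be told apart.

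At E6.5 Id1 was almost silent in the distal epiblast and high in the most proximal sections. In A its level in the most distal section was 0 to 1.76 FPKM. In the most proximal section it was 112, 248, 289, 160, 96.0 and 164 FPKM in embryos 1 to 6. In P the most distal section held 0 to 1.13 FPKM and the most proximal one 140, 258, 192, 215, 32.3 and 138 FPKM. The 2 ends did not overlap in either region, and the lowest proximal value, 32.3 FPKM in P of embryo 5, still stood above every distal one. Most of the rise lay in the last 2 to 4 sections: in embryo 2, A held 0.1, 0.2, 1.0, 2.7, 39.7 and 248 FPKM from section 2 to 7.

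The proximal slope is the fitted change in log2(FPKM + 1) from the most distal to the most proximal section of a region, with 1 value per embryo. For Id1 at E6.5 it was 7.23 ± 0.48 in A (SE, n = 6 embryos; limma, adjusted p = 7.02e-09) and 7.23 ± 0.57 in P (n = 6; limma, adjusted p = 1.10e-07). Every embryo rose, by 6.05 to 7.96 in A and by 6.01 to 7.94 in P. By p-value it ranked 1st of 11680 genes tested in A and 8th of 11628 in P. Across all genes, 0.0342% rose in A at E6.5 and 1.41% in P, with a median slope of 0.08 in A and 0.36 in P. Id1 and Id2 were thus 2 of the 4 genes called higher proximally in A, and 2 of 164 in P.

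The number of calls depends on a choice made after results were seen. limma's variance trend first followed the tested slopes or differences, and was then changed to follow the mean expression level. Of 43 calls of single Id genes given here, 28 were also called with the first version and 15 were not, and no call was lost by the change. The E6.5 calls in A and P were called in both versions, and each of the 15 is given below with its adjusted p under the first trend. Calls of the other pathway genes are given from the second version alone.

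**Figure D1:**
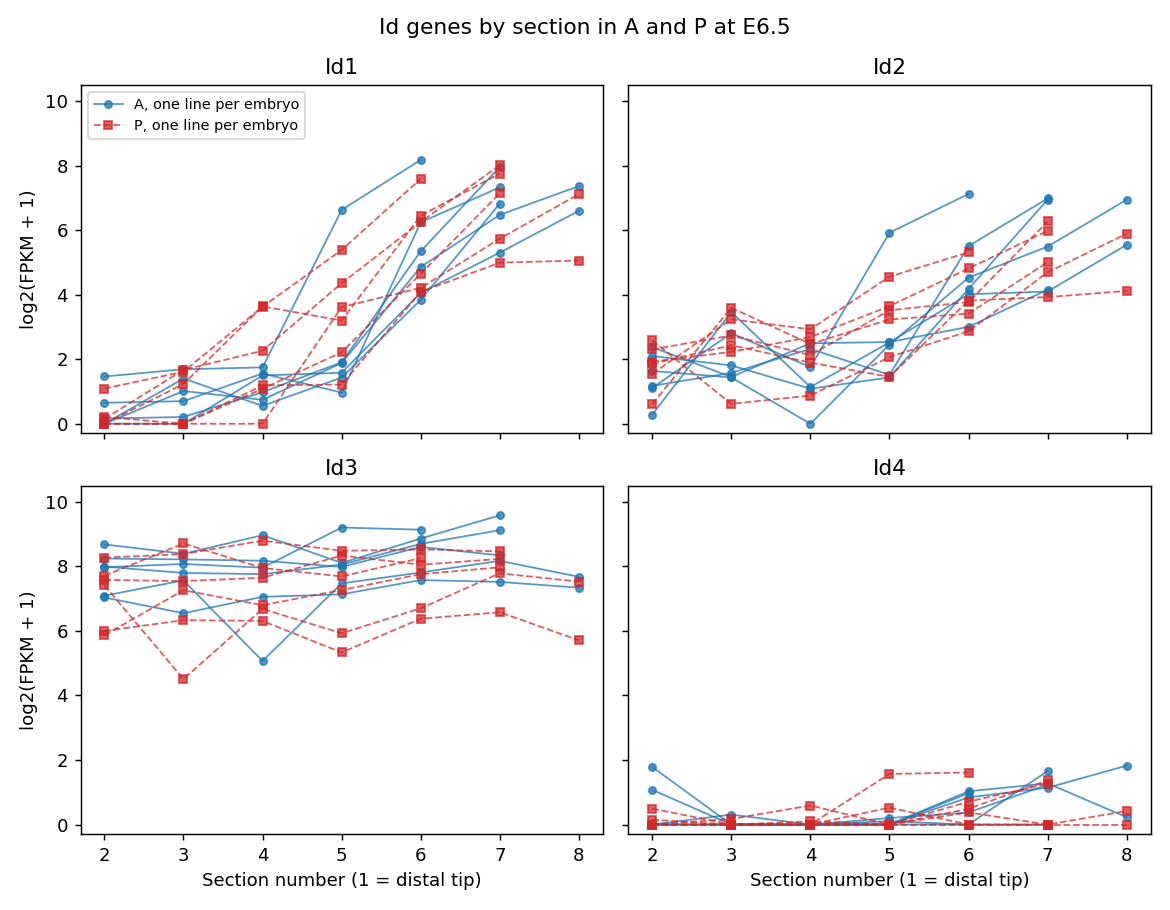
Level of each Id gene by section number at E6.5, as log2(FPKM + 1), with 1 line per embryo for A (solid, circles) and P (dashed, squares). Id1 and Id2 climb in the last sections of both regions, Id3 stays high in every section, and Id4 stays near 0.

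Id2 followed the same shape at lower levels and from a low but detectable distal base. In A it measured 0.22 to 4.20 FPKM distally and 16.8, 123, 138, 125, 45.8 and 122 FPKM proximally in embryos 1 to 6. In P it measured 0.53 to 5.00 FPKM distally and 31.2, 76.2, 38.8, 62.1, 16.3 and 58.3 FPKM proximally. The ends did not overlap, and the proximal level was higher in A than in P in 5 of 6 embryos, all but embryo 1. The slope of Id2 was 4.77 ± 0.47 in A (SE, n = 6; limma, adjusted p = 5.42e-06, 6 of 6 embryos) and 3.52 ± 0.45 in P (n = 6; limma, adjusted p = 6.22e-05, 6 of 6 embryos). It ranked 2nd in A and 32nd in P. Without the most proximal section the slope of Id2 fell to 2.92 in A and 2.29 in P, with adjusted p of 0.0441 and 0.00244 by limma. In P it was not called without embryos 1 to 4, where it was 3.40 with a limma adjusted p of 0.478.

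Id3 was above 0 in every A and P library at E6.5. Its distal level in A was 130 to 410 FPKM and its proximal level 161 to 766 FPKM, and in P these were 57.2 to 308 and 51.3 to 352 FPKM. The ranges of the 2 ends overlap in both regions. The slope of Id3 was 0.92 ± 0.56 in A (n = 6; limma, adjusted p = 1) and 0.69 ± 0.36 in P (n = 6; limma, adjusted p = 0.272), positive in 6 of 6 and 5 of 6 embryos. Id4 measured 0 to 2.44 FPKM distally and 0 to 2.55 FPKM proximally in A, with a slope of 0.64 ± 0.33 (n = 6; limma, adjusted p = 1). In P Id4 was too low to be tested, at a mean under 1 FPKM at every stage.

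At E7.5 Id1 was again high at the proximal end, and in A it was also present at the distal tip. In embryos 1, 2 and 3, whose A was sampled in every section, section 1 held 36.4, 17.3 and 15.1 FPKM, sections 3 to 5 held 0 to 4.7 FPKM, and the most proximal section held 129, 208 and 215 FPKM. The middle sections were thus the lowest in these 3 embryos. In embryos 4, 5 and 6, sampled in A only at sections 3, 6 and 9, Id1 was 0, 0 and 1.5 FPKM at section 3 and 104, 118 and 235 FPKM at section 9. In P it ran from 5.79 to 13.7 FPKM in section 1 to 139, 144, 164 and 261 FPKM in section 10 of embryos 3 to 6. The slope of Id1 was 5.46 ± 0.48 in A (SE, n = 6; limma, adjusted p = 1.55e-06, 6 of 6 embryos, ranked 1st) and 4.65 ± 0.70 in P (n = 4; limma, adjusted p = 9.56e-04, 4 of 4 embryos, ranked 24th). At this stage 0.317% of all genes rose proximally in A and 0.671% in P, with a median slope of 0.09 in A and 0.37 in P. Without the most proximal section the slopes were 2.31 and 3.42, with limma adjusted p of 0.0946 and 0.109. In P the call was also lost with a pseudocount of 0.1 (4.93, limma adjusted p = 0.0611) and with embryo 3 alone (5.06, limma adjusted p = 0.333).

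Id2 at E7.5 was present along the whole length of A and lower in most of P. In A of embryos 1 to 3 it measured 9.3 to 106 FPKM in sections 1 to 8 and 159, 179 and 187 FPKM at the top. In embryos 4 to 6 section 3 held 7.7, 29.0 and 10.8 FPKM and section 9 held 115, 206 and 166 FPKM. In P its top section held 28.7, 17.3, 46.3 and 59.6 FPKM in embryos 3 to 6, below every top value of A. The slope of Id2 was 2.67 ± 0.47 in A (n = 6; limma, adjusted p = 0.00531, 6 of 6 embryos) and 1.51 ± 0.55 in P (n = 4; limma, adjusted p = 0.160, 4 of 4 embryos). The call in A was lost without the most proximal section (1.10, limma adjusted p = 0.553), without embryos 1 to 3 (3.45, 0.0777), without embryos 4 to 6 (1.88, 0.179) and with the first variance trend (2.67, 0.0927).

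Id3 rose proximally in P at E7.5, where its slope at E6.5 had not passed the test. In section 1 it measured 0 to 94.9 FPKM in embryos 3 to 6, with the value of 0 in embryo 4, and in section 10 it measured 719, 279, 268 and 263 FPKM. The ends did not overlap. The slope in P was 3.14 ± 0.44 (n = 4; limma, adjusted p = 5.60e-04, 4 of 4 embryos, ranked 16th), and with embryo 3 alone it was 3.42 with a limma adjusted p of 0.333. In A the slope of Id3 was 1.69 ± 0.56 (n = 6; limma, adjusted p = 0.196, 6 of 6 embryos), with distal values of 10.4 to 520 FPKM and proximal ones of 115 to 834 FPKM that overlap. Id4 reached its highest A value of 9.74 FPKM in the most proximal section of embryo 3, and its slope in A was 1.17 ± 0.33 (n = 6; limma, adjusted p = 0.113, 5 of 6 embryos).

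**Figure D2:**
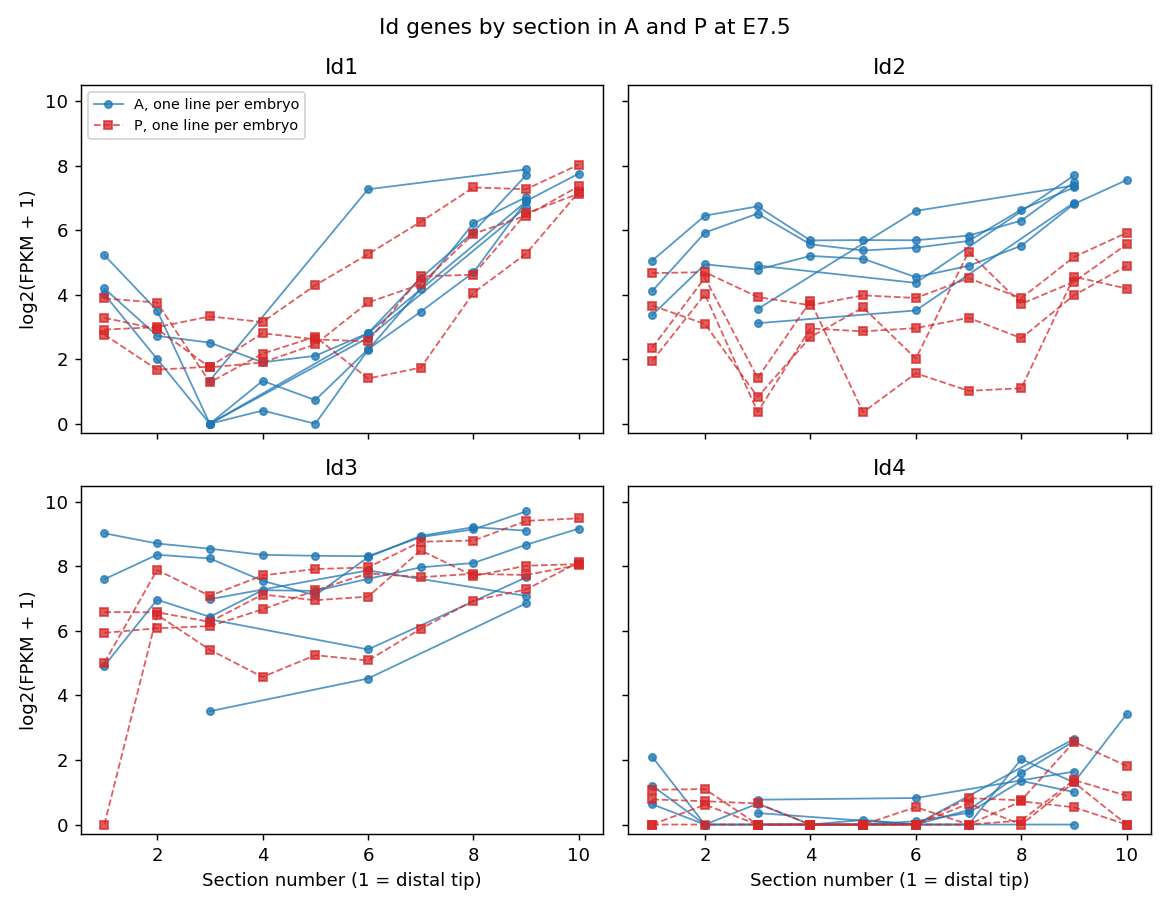
Level of each Id gene by section number at E7.5, as log2(FPKM + 1), with 1 line per embryo for A (solid, circles) and P (dashed, squares). Id1 in A is high at section 1 (15.1 to 36.4 FPKM), low at sections 3 to 5 and highest at the top, and most Id2 points of A lie above those of P.

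The stages with 2 embryos gave fewer calls, and single libraries weighed heavily in them. At E5.5 values jumped between neighbouring sections: Id1 in A of embryo 1 was 10.2, 22.8, 40.5, 0.8 and 134 FPKM from section 2 to 6, and in embryo 2 it was at most 1.7 FPKM. The slope of Id2 at E5.5 was 3.95 ± 0.81 in A (n = 2; limma, adjusted p = 0.00416) and 2.54 ± 0.78 in P (limma, adjusted p = 0.0400), and that of Id3 was 2.25 ± 0.63 in P (limma, adjusted p = 0.0259). The slopes of Id1 were 1.14 in A and 2.00 in P and that of Id3 in A was 0.83, and none of these 3 was called (limma, adjusted p = 0.435, 0.207 and 0.683). At that stage 6.16% of all genes rose in A and 7.56% in P, and with the stage fitted alone all 3 calls were lost (limma, adjusted p = 0.879, 0.770 and 0.687). They were also lost with libraries scaled to an equal median (limma, adjusted p = 0.0744, 0.0942 and 0.0762). With the first variance trend Id2 in P was not called (limma, adjusted p = 0.0648).

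At E6.0 Id1 and Id2 were compared from section 2 to section 5, the most proximal one. In P of embryos 1 and 2 Id1 went from 3.2 and 0 FPKM in section 2 to 173 and 60.4 FPKM in section 5, and Id2 from 0.5 and 6.9 to 330 and 46.7 FPKM. In A Id1 reached 6.4 and 61.2 FPKM and Id2 4.3 and 57.3 FPKM. The slope in P was 4.97 ± 0.98 for Id1 (n = 2; limma, adjusted p = 0.0241) and 4.84 ± 0.78 for Id2 (limma, adjusted p = 0.0133), where 0.335% of all genes rose. In A it was 3.97 ± 0.83 for Id1 (limma, adjusted p = 0.115) and 3.45 ± 0.81 for Id2 (limma, adjusted p = 0.229), where 0.00856% of genes, 1 gene, rose. Without section 5 the slopes in P were 1.45 and 1.33, with limma adjusted p of 1 and 0.702. Without embryo 1 they were 6.28 and 2.69, with limma adjusted p of 0.0597 and 0.223. With the first variance trend Id1 in P was not called (limma, adjusted p = 0.0618).

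At E7.0 Id1 was called in both regions and Id2 in neither, and neither Id1 call was made with the first variance trend (limma, adjusted p = 1 in A and 0.120 in P). Id1 in A went from 3.3 and 2.6 FPKM in the lowest section to 130 and 154 FPKM in section 9 of embryos 1 and 2, with a slope of 5.35 ± 0.83 (n = 2; limma, adjusted p = 0.0225). It was the 1 gene called there, again 0.00856% of those tested, and the call was lost in 7 of 12 alternatives. In P Id1 went from 13.8 and 4.2 FPKM in section 1 to 52.5 and 119 FPKM in section 11, with a slope of 3.96 ± 0.98 (limma, adjusted p = 0.0442), where 0.353% of genes rose and 1.32% fell. That call was lost in 8 of 12 alternatives, each embryo left out among them. Id2 in P of embryo 1 lay at 5.6 to 10.3 FPKM in sections 1 to 5 and at 0.3 to 2.0 FPKM in sections 6 to 11. In embryo 2 it lay at 5.1 to 33.4 FPKM in sections 1 to 10 and reached 63.9 FPKM in section 11. The slope of Id2 in P was -1.65 ± 0.78 (n = 2; limma, adjusted p = 0.555). In A it was 2.38 ± 0.81 (limma, adjusted p = 0.903), which was not called either. Id3 was not called in A (1.06; limma, adjusted p = 1) or in P (-0.61; limma, adjusted p = 0.973).

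**Figure D3:**
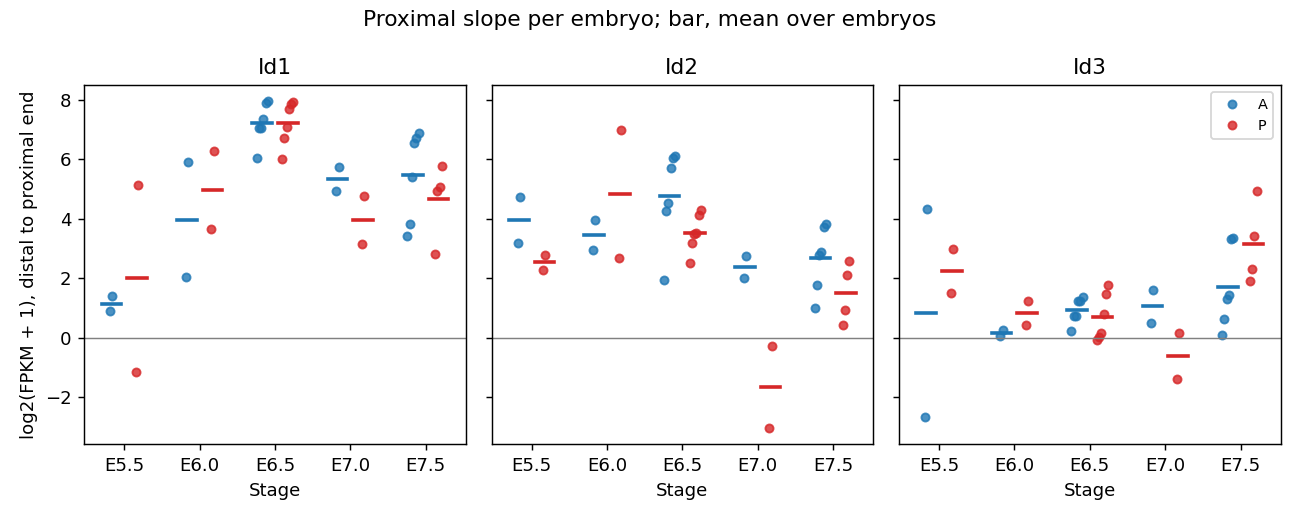
Proximal slope of Id1, Id2 and Id3 per embryo (points) and its mean (bars) by stage, in A (blue) and P (red), as the fitted change in log2(FPKM + 1) from the distal to the proximal end. Id1 points are above 0 in every embryo from E6.0 on in both regions, and Id2 in P is below 0 in both E7.0 embryos.

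The steepness of the rise could not be told apart between A and P by test. At E6.5 the slope in P minus that in A of the same embryo was -0.0045 ± 0.59 for Id1 (n = 6; limma, adjusted p = 0.999), -1.25 ± 0.65 for Id2 (limma, adjusted p = 0.922) and -0.22 ± 0.49 for Id3 (limma, adjusted p = 0.961). The sign for Id1 turned under 8 alternatives, up to 0.57 without the most proximal section. At E7.0 the slope difference was largest for Id2, at -4.03 ± 1.12 (n = 2; limma, adjusted p = 0.543), with -5.79 and -2.27 in the 2 embryos. For Id1 it was -1.39 ± 1.02 and for Id3 -1.67 ± 0.85, also below 0 in 2 of 2 embryos. None of these was called, and A and P covered unlike sections there. At E7.5 the slope difference was -1.74 ± 0.72 for Id1 (n = 4; limma, adjusted p = 0.971), -1.80 ± 0.79 for Id2 (limma, adjusted p = 1) and 1.12 ± 0.60 for Id3 (limma, adjusted p = 1). Id1 and Id2 were less steep in P in 4 of 4 embryos and Id3 was steeper in 4 of 4, but the A of 3 of these embryos began at section 3. Across all genes 0.113% differed at E6.5 and 0.0524% at both E7.0 and E7.5. Of the 3 Id genes tested, 0 at E6.5 and 2 at E7.5 had an unadjusted p under 0.05. Of all 11461 genes, 583 and 539 did. At E7.0 Id2 was the only Id gene to do so (limma, unadjusted p = 0.00205), beside 414 of all genes.

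The change in slope from E6.5 to E7.5 was not called for any Id gene. In A it was -1.76 ± 0.68 for Id1 (n = 6 and 6; limma, adjusted p = 0.623) and -2.11 ± 0.66 for Id2 (limma, adjusted p = 0.417), where 0.163% of genes changed. In P it was -2.57 ± 0.90 for Id1 (n = 6 and 4; limma, adjusted p = 0.498), -2.01 ± 0.71 for Id2 (limma, adjusted p = 0.502) and 2.44 ± 0.57 for Id3 (limma, adjusted p = 0.0718), where 0.482% of genes changed. At an unadjusted p under 0.05 there were 2 of 4 Id genes in A and 3 of 3 in P. Of all genes there were 696 of 11680 in A and 596 of 11628 in P. The slopes of Id3 in P at E6.5 and E7.5 are therefore not shown to differ. The 2 stages also covered unlike sections. A and P began at section 2 at E6.5. At E7.5 A held every section in embryos 1 to 3 and only sections 3, 6 and 9 in embryos 4 to 6. Id1 slopes in A were 3.41 to 5.42 in the former and 6.54 to 6.89 in the latter. Over the alternatives, the change for Id1 in A ran from -3.01 to -0.51. The part of sampling in these changes was not tested.

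Between P and A at the same sections, Id2 was called at E7.0 and E7.5, Id3 at E5.5 and E7.0, and Id1 at no stage. The P minus A difference is the mean over shared sections of 1 embryo in log2(FPKM + 1). Id2 at E7.5 was lower in P by 1.51 to 3.24 in 4 of 4 embryos, with a mean of -2.25 ± 0.34 (n = 4; limma, adjusted p = 2.08e-04), where 13.9% of all genes differed. At sections 3, 6 and 9 this was 80.4 ± 26.2 FPKM in A (SD, n = 6) and 11.3 ± 6.54 FPKM in P (SD, n = 4), with the lowest A embryo at 44.3 and the highest P embryo at 21.0 FPKM. With embryo 3 alone the difference was -2.28 with a limma adjusted p of 0.190. At E7.0 Id2 was lower in P by 1.13 and 2.61 (mean -1.87 ± 0.49, n = 2; limma, adjusted p = 0.0455), where 2.95% of genes differed, and with the first variance trend it was not called (limma, adjusted p = 0.0668). At E6.5 it was 0.07 ± 0.28 (n = 6; limma, adjusted p = 1), with 3 embryos on each side of 0.

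Id3 was higher in P at E5.5, by 1.05 ± 0.26 (n = 2; limma, adjusted p = 0.0111, 2 of 2 embryos), where 15.1% of all genes differed. At E6.5 it was lower in P in 6 of 6 embryos, by 0.28 to 1.08, a mean of -0.64 ± 0.15 that missed the threshold (n = 6; limma, adjusted p = 0.0569), where 0.724% of genes differed. At E7.0 it was lower in P by 1.40 ± 0.26 (n = 2; limma, adjusted p = 0.00458, 2 of 2 embryos). At E7.5 it was 0.52 ± 0.18 higher in P, in 3 of 4 embryos (n = 4; limma, adjusted p = 0.0645). For Id1 the difference was 0.23 ± 0.38 at E6.5 (n = 6; limma, adjusted p = 1) and 0.11 ± 0.46 at E7.5 (n = 4; limma, adjusted p = 0.905), with embryos on both sides of 0. At E7.0 the Id1 difference was -0.66 ± 0.65, below 0 in 2 of 2 embryos and not called (n = 2; limma, adjusted p = 0.786). Without the pairing of A and P within an embryo, the calls for Id3 at E5.5 and E7.0 and for Id2 at E7.0 were lost (limma, adjusted p = 0.937, 1 and 0.461), and that for Id2 at E7.5 held (limma, adjusted p = 0.00140).

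**Figure D4:**
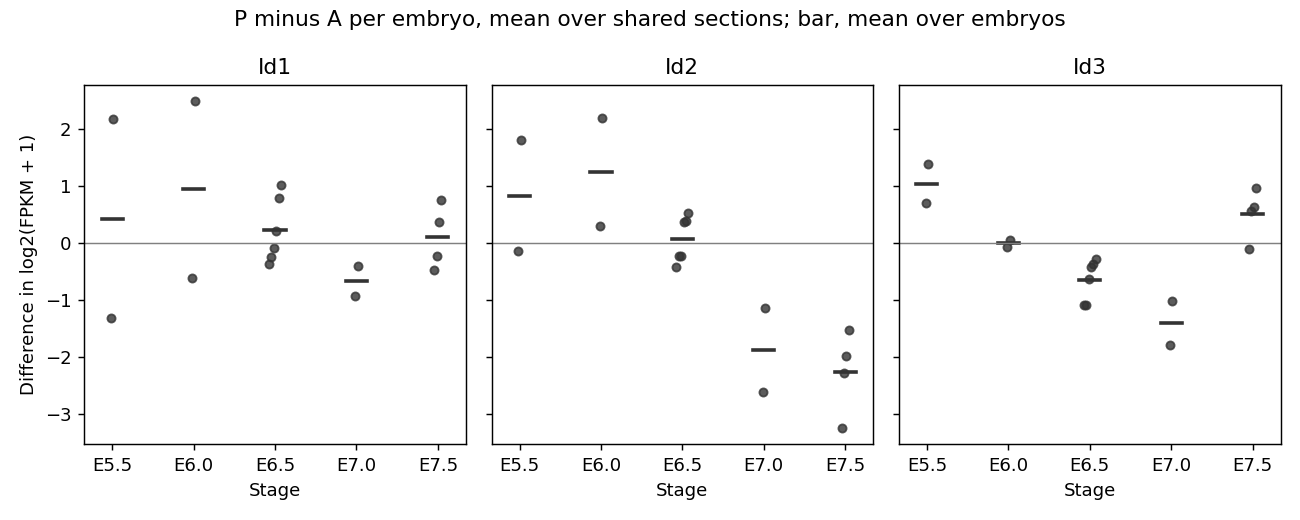
P minus A per embryo (points) and mean (bars) by stage for Id1, Id2 and Id3, as the difference in log2(FPKM + 1) over shared sections. Id2 lies below 0 in every embryo at E7.0 and E7.5, and Id3 below 0 in every embryo at E6.5 and E7.0. Id1 lies below 0 in both E7.0 embryos and on both sides of 0 at the other stages.

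Proximal rises were also called in endoderm at E6.5, E7.0 and E7.5 and in mesoderm at E7.5, each from 2 embryos per stage, and none was called in the mesoderm of E7.0. In EP at E6.5 Id1 was at 0 distally and at 47.6 and 145 FPKM proximally, a slope of 6.99 ± 0.93 (n = 2; limma, adjusted p = 3.09e-04), with 4.75 ± 0.94 for Id2 (limma, adjusted p = 0.0165) and 4.89 ± 0.97 for Id3 (limma, adjusted p = 0.0165). Here 1.27% of genes rose. The median slope of all genes at E6.5 was 0.85 in EP and 0.63 in EA, and at E7.0 and E7.5 it was 0.11 to 0.29. In EA at E6.5 the slope was 6.17 ± 0.90 for Id1 (n = 2; limma, adjusted p = 0.0292) and 4.85 ± 0.76 for Id2 (limma, adjusted p = 0.0351), where 0.597% of genes rose. At E7.0 no Id gene was called in EA, where 0.828% of genes rose, and Id1 and Id2 were in EP (3.61 and 5.07; limma, adjusted p = 0.0390 and 0.00280), where 1.68% rose. At E7.5 Id2 rose in EA (4.76; limma, adjusted p = 0.0148; 0.818% of genes) and Id1 and Id2 rose in EP (5.01 and 4.59; limma, adjusted p = 0.00175 and 0.00431; 2.5% of genes). In EA at E7.0 2 of 3 Id genes tested had an unadjusted p under 0.05, beside 994 of all 10390 genes. With no filter on low values, none of these endoderm slopes was called. With the first variance trend the EA calls were lost at E6.5 (limma, adjusted p = 0.0942 for both genes) and at E7.5 (0.266), and so was that of Id1 in EP at E7.0 (0.0629).

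The summed visceral endoderm genes rose along the same axis in these libraries, from 170 to 684.8 FPKM distally to 844 to 9938 FPKM proximally at E6.5. Their part in the Id slopes was not tested.

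In the mesoderm code M at E7.0 the slopes were 2.84 ± 1.01 for Id1, 1.78 ± 0.87 for Id2 and 2.61 ± 1.03 for Id3, positive in 2 of 2 embryos each, and none was called (n = 2; limma, adjusted p = 0.269, 0.763 and 0.419), where 0.591% of genes rose. All 3 had an unadjusted p under 0.05, beside 565 of all 9134 genes. The median slope of all genes in M was 0.52. In mesoderm at E7.5 Id1, Id2 and Id3 rose in both parts of the layer. These slopes were fitted from this stage alone, so their spread came from 2 embryos and from other genes. In MA they went from 0 to 6.81, 4.13 to 10.3 and 8.66 to 20.2 FPKM distally to 53.4 to 103, 53.6 to 97.5 and 197 to 242 FPKM proximally. The slopes in MA were 5.01 ± 0.37, 4.34 ± 0.39 and 4.15 ± 0.35 (n = 2; limma, adjusted p = 7.13e-09, 1.86e-07 and 5.90e-08), where 5.6% of genes rose. In MP they were 4.51 ± 0.41, 3.72 ± 0.38 and 2.46 ± 0.28 (n = 2; limma, adjusted p = 0.00534, 0.00680 and 0.0114), where 0.851% rose. The median slope of all genes was 0.47 in MA and 0.25 in MP. In MP all 3 calls were lost with a pseudocount of 0.1 or no filter on low values, and those of Id2 and Id3 with the first variance trend (limma, adjusted p = 0.156 and 0.602).

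Among the 6 codes with 2 or more embryos at E7.5, the lateral codes of embryo 3 and the separate layer codes of embryo 4 left out, levels at sections 3, 6 and 9 were ordered as follows. Id2 was highest in EP (82.2 ± 12.3 FPKM, SD, n = 2), A (80.4 ± 26.2, n = 6) and MA (72.8 ± 28.2, n = 2), then EA (53.7 ± 12.8, n = 2), MP (24.5 ± 0.34, n = 2) and P (11.3 ± 6.54, n = 4). The ranges of A and MA overlap those of EP and EA. EP (73.5 to 91.0 FPKM) and EA (44.6 to 62.7 FPKM) do not overlap each other, and MP and P lie below each of the first 4. Within embryos, over all shared sections, Id2 was higher in EP than in EA by 0.53 ± 0.41 (n = 2; limma, unadjusted p = 0.224). That difference was not called, where 0.266% of genes differed. Id2 was lower in MP than in MA by 1.07 ± 0.24 (n = 2; limma, adjusted p = 5.04e-04, 2 of 2 embryos), where 3.44% of genes differed. Id1 ran from EA (86.7 ± 31.8 FPKM, n = 2) through EP, MA and A to MP (49.0 ± 22.9, n = 2) and P (36.6 ± 21.9, n = 4), and neighbours in that order overlap within their spread. Id3 ran from A (241 ± 175 FPKM, n = 6) through MA, P (188 ± 118, n = 4) and MP to EP (106 ± 15.3, n = 2) and EA (105 ± 4.11, n = 2), and the range of A overlaps all the others. A and P here come from different sets of embryos, and within embryos Id3 was higher in P in 3 of 4. The codes with 1 embryo ran from M1 to R2 for each of these genes. Id3 went from 63.3 to 540 FPKM, beyond both ends of the order above. Id2 went from 19.9 to 89.3 FPKM, above the mean of EP but not below that of P. Id1 went from 18.4 to 79.5 FPKM, below the mean of P but not above that of EA.

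Endoderm was called lower than epiblast for Id3 at E6.5 and E7.0, and higher for Id1 at E7.0 and E7.5. Id3 was lower by 2.59 ± 0.26 at E6.5 (n = 2; limma, adjusted p = 2.60e-06) and by 1.18 ± 0.26 at E7.0 (limma, adjusted p = 0.00384), against 57.3% and 24% of all genes lower. At E7.5 the difference for Id3 was -0.63 ± 0.26 and was not called (limma, adjusted p = 0.111), with 8.43% of genes lower. Id1 was higher by 0.85 ± 0.37 at E6.5 (limma, adjusted p = 0.0582), 1.05 ± 0.37 at E7.0 (limma, adjusted p = 0.0424) and 1.30 ± 0.37 at E7.5 (limma, adjusted p = 0.0256), where 3.48%, 7.42% and 7.89% of genes were higher. Mesoderm was lower than P for Id3 at E7.5, by 0.59 ± 0.13 (n = 2; limma, adjusted p = 0.0319), where 19% of genes differed. Without the pairing within embryos the endoderm calls at E7.0 and E7.5, the mesoderm call and that for Id2 between MP and MA were lost, with limma adjusted p of 0.119 to 1. With the first variance trend the calls for Id1 in endoderm at E7.0, Id3 in mesoderm and Id2 between MP and MA were lost (limma, adjusted p = 0.0523, 0.0525 and 0.0704).

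**Figure D5:**
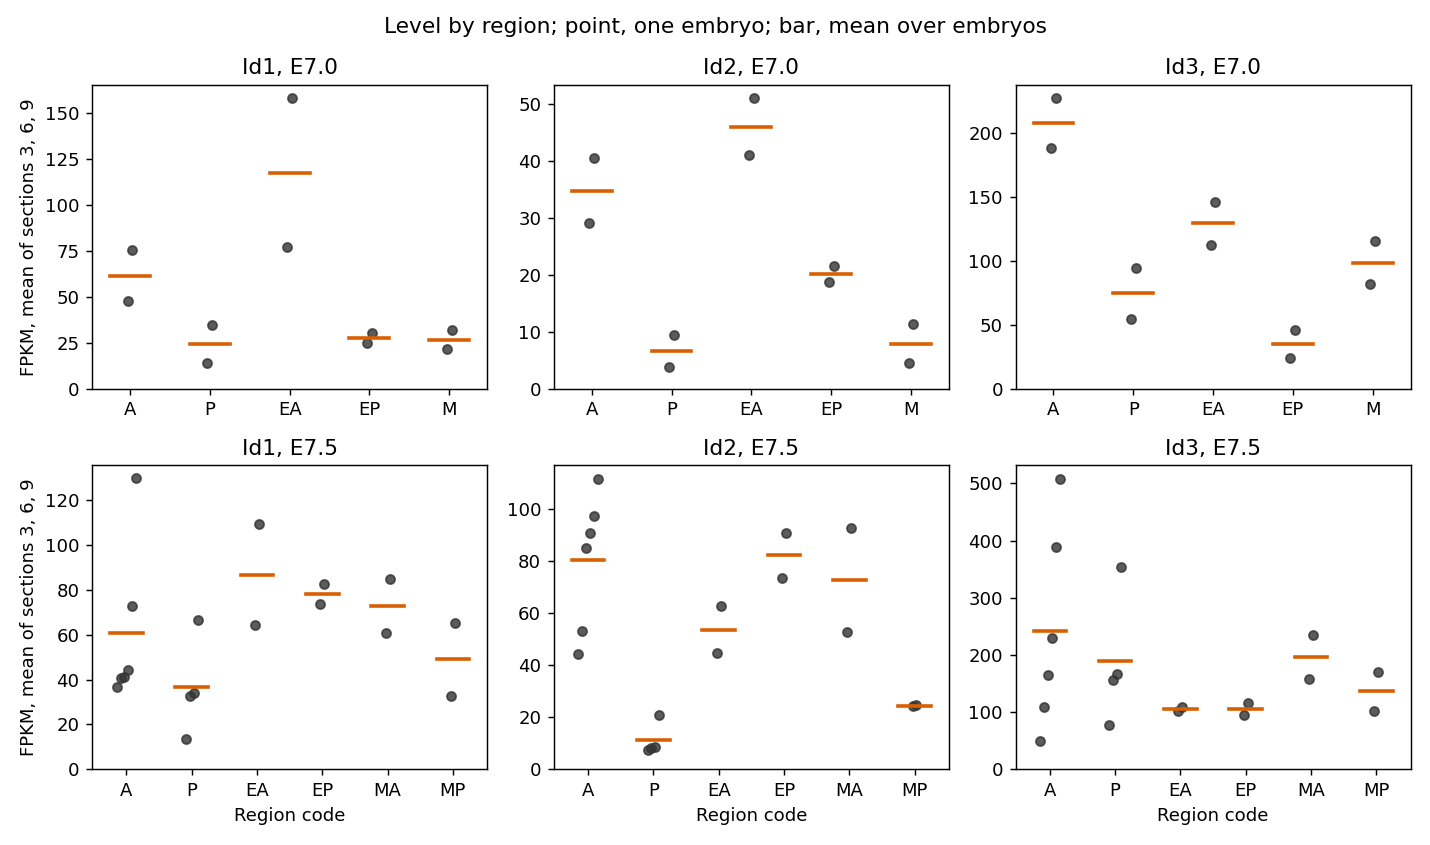
Level of Id1, Id2 and Id3 in FPKM, averaged over sections 3, 6 and 9, by region code at E7.0 and E7.5; each point is 1 embryo and each bar the mean. Axes differ between panels. At E7.5 the 4 P embryos of Id2 (7.31 to 21.0 FPKM) lie below all 6 A embryos (44.3 to 112 FPKM).

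Between stages, with libraries rescaled to an equal sum, the mean level of Id2 in A rose from E6.5 to E7.5 by 2.90 ± 0.38 on the log2 scale (n = 6 and 6; limma, adjusted p = 5.85e-05), where 1.72% of genes rose. Without E6.5 embryos 1 to 4 it was 2.47, with a limma adjusted p of 0.0567. Id1 in P rose by 1.48 ± 0.37 (n = 6 and 4; limma, adjusted p = 0.0117), where 7.94% of genes rose. That call was lost with FPKM as deposited (0.83; limma, adjusted p = 0.373) and with an equal median (0.75; limma, adjusted p = 0.158).

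The other genes of the BMP pathway were not called along A at E6.5, and whether their slopes differ from those of Id1 and Id2 was not tested. At E6.5 none of 3 tested ligands, 7 receptors, 8 SMADs and their regulators, 9 antagonists, 4 other BMP response genes and 3 E proteins was called in A. At an unadjusted p under 0.05 there were 1 ligand and 1 antagonist, both higher proximally, and 0 in the other 4 lists. Of all 11680 genes, 303 had such a p. The list medians ran from 0.03 to 0.43, beside 0.08 for all genes. Bmp4, the ligand made by extra-embryonic ectoderm, had a median of 0.26 FPKM distally and 3.39 FPKM proximally in A, and its slope was 0.91 ± 0.32 (n = 6; limma, adjusted p = 1).

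In P at E6.5, where 1.41% of all genes rose, a few pathway genes were called, and whether they differ from A was not tested. Msx2, a homeobox gene induced by BMP, rose by 2.75 ± 0.52 (n = 6; limma, adjusted p = 0.00582, 6 of 6 embryos), 1 of 10 response genes tested. Bmp7, a ligand, rose by 1.01 ± 0.24 (limma, adjusted p = 0.0318), 1 of 3 ligands. Fst, which encodes the secreted inhibitor follistatin, rose by 4.57 ± 0.46 (limma, adjusted p = 4.48e-06), 1 of 9 antagonists. Primitive streak genes rose over the same sections in 10 of 12 cases, with Mesp1, a factor of nascent mesoderm, at 7.58 ± 0.40 (limma, adjusted p = 2.35e-10). T (brachyury), the classic streak marker, went from a median of 0.073 FPKM distally to 98.4 FPKM proximally. The streak list's median in P was 3.34, beside 0.36 for all genes.

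At E7.5 4 of 9 antagonists tested in A fell proximally, where 0.437% of all genes fell. None was called higher, and 1 was higher at an unadjusted p under 0.05, beside 523 of all 11680 genes. The list median was -1.87 beside 0.09 for all genes. Cer1, which binds BMP and NODAL ligands, had a slope of -2.92 ± 0.48 (n = 6; limma, adjusted p = 0.00267, 6 of 6 embryos). Nog (noggin), a BMP-binding antagonist, had one of -1.98 ± 0.32 (limma, adjusted p = 0.00222), Fst one of -3.42 ± 0.66 (limma, adjusted p = 0.0129) and Dand5 one of -1.87 ± 0.36 (limma, adjusted p = 0.0119), each in 5 of 6 embryos. Dlx5, a homeobox gene responsive to BMP, rose by 2.22 ± 0.32 (limma, adjusted p = 8.43e-04), 1 of 4 response genes tested. The distal ends of A differed in content, with T at 6.44 to 1216 FPKM, and its part in these slopes was not tested.

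In P at E7.5 Msx2 (3.24 ± 0.64; limma, adjusted p = 0.0129) and Hand1 (2.79 ± 0.53; limma, adjusted p = 0.00912), a factor of extra-embryonic mesoderm, rose, 2 of 10 response genes, where 0.671% of all genes rose. Chrd (chordin), a BMP antagonist, fell by 2.54 on the log2 scale (SE 0.40, n = 4; limma, adjusted p = 0.00178), where 0.361% of genes fell. At E7.0 it had fallen along P by 6.54 (SE 0.57, n = 2; limma, adjusted p = 1.31e-06), where 1.32% of genes fell.

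Across P and A at E7.5 13.9% of all genes differed, in either direction. The ligand Bmp4 was higher in P by 0.99 ± 0.24 (n = 4; limma, adjusted p = 0.00984, 4 of 4 embryos). Smad1, which carries the BMP signal, was higher in P by 0.73 ± 0.19 (limma, adjusted p = 0.0162), 1 of 3 genes called higher among 8 SMADs and regulators tested. The E protein Tcf4 was higher by 0.71 ± 0.16 (limma, adjusted p = 0.00537), 1 of 3. Hand1 and Cdx2 were higher in P (1.18 and 4.27; limma, adjusted p = 0.00331 and 1.21e-09) and Dlx5 was lower (-0.64; limma, adjusted p = 0.00526). Dlx5 had the same sign as Id2 here.

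In E7.5 mesoderm some ligands and response genes were called higher proximally. In MA these were 3 of 4 ligands and 5 of 7 response genes tested, where 5.6% of all genes rose, and in MP 2 of 4 and 4 of 7, where 0.851% rose. Bmp4 had slopes of 4.25 ± 0.41 in MA and 6.22 ± 0.33 in MP (n = 2; limma, adjusted p = 2.92e-07 and 6.65e-04). Msx2 had 4.80 ± 0.56 and 5.66 ± 0.53 (limma, adjusted p = 4.97e-04 and 0.00538). Smad6, a SMAD that inhibits BMP signalling and is itself induced by it, had 2.79 ± 0.44 and 2.46 ± 0.39 (limma, adjusted p = 4.33e-04 and 0.0379). No receptor was called, of 6 tested in MA and 7 in MP, and 1 in MA and 0 in MP had an unadjusted p under 0.05. Of all genes, 2174 of 9395 in MA and 1113 of 9169 in MP had such a p.

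Markers of neighbouring extra-embryonic tissue moved with the proximal rise in some libraries. In A at E6.5 the 18 extra-embryonic ectoderm genes summed to a median of 21.2 FPKM distally (8.49 to 26.1) and 63.5 FPKM proximally (5.87 to 109). None of 10 tested was called, and 3 had an unadjusted p under 0.05, beside 303 of all 11680 genes. In P the 18 genes went from 19.6 to 96.5 FPKM. Elf5, a defining gene of that tissue, was 0 in all distal libraries of A and had a median of 0.85 FPKM proximally with 1 library at 13.4 FPKM. In A at E7.5 the 18 genes summed to a median of 24.3 FPKM distally (10.2 to 53.7) and 37.3 FPKM proximally (13.8 to 89.97), with 1 of 10 tested called higher. Elf5 and Esrrb, 2 of the 18, were listed at 0 in the proximal A of all 6 embryos. The 11 genes of decidua and maternal blood in the tables summed to 117 to 779 FPKM distally and 6.68 to 8539 FPKM proximally in A at E7.5. The part of these tissues in the Id slopes was not tested at either stage.

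The patterns closest to each Id gene were sought over 216 A and P libraries of 18 embryos, after each gene's mean in the embryo was subtracted, among 5158 genes. The values are Pearson's r across libraries that share embryos and depth. FPKM was used as deposited here, and the part of differing FPKM sums in these values was not tested. The gene most like Id1 was Id2 (0.62), ahead of the imprinted RNA H19 (0.53), Psme2 (0.52), Pdgfa (0.50) and Efna1 (0.48). After Id1, Id2 was most like the chemokine gene Cxcl12 (0.54), Ckb (0.47), Sparc (0.45) and H19 (0.45). Id4 was most like Id1 (0.47) and H19 (0.38). Id3 differed in its closest genes, which were Gins2 (0.72), a subunit of the replication complex, Snhg1 (0.67), Dtymk (0.67), Rbmxl1 (0.65) and Zfp36l2 (0.64). Its r was 0.42 with Id1 and 0.44 with Id2, near those of Id4 with Id1 (0.47) and Id2 (0.38).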

How the data were processed

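The deposited tables hold FPKM per gene and library; the authors made them with TopHat2 2.0.8b and Cufflinks 2.1.1 on mm10, per the submitters' processing notes, and the annotation and options are not given in the sources used here. FPKM hides depth, so no count test was possible, and Cufflinks estimates can be 0 by failure. Of 584 columns, 111 matched no sample label and were not used. The columns titled for E6.5 embryo 6 were found inside an E6.0 table and were assigned by their names. Section 1 was read as the distal tip, as in the published atlas.

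Levels were taken as log2(FPKM + 1). The slope is a least-squares fit on section number scaled from 0 to 1, for regions with 3 or more sections. Slopes and differences, 1 value per embryo, were tested with limma 3.58.1 (R 4.3.3). All stages that hold the regions were in 1 fit, so the M, MA and MP slopes and MP against MA were fitted within 1 stage. The robust variance trend was on mean level. Benjamini-Hochberg adjustment ran over all genes with a mean of at least 1 FPKM in a stage, at a threshold of 0.05. The script was tested on simulated data. The trend first followed the tested slopes or differences; it was changed to mean level, which is what such a trend is meant to follow, after results were seen. The change added 15 of the 43 calls of Id genes and removed none, and the first version is kept as an alternative. E7.5 embryos were also left out in groups after the data were seen. The embryo is the replicate.

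A and P of an embryo come from the same animal, so differences are paired; deviations of the same embryo in A and P correlated at 0.466 to 0.930 over 10 embryos. Levels between stages used libraries rescaled to sum to 1000000. The Id genes and 14 gene lists were chosen with earlier results of these data known. Genes named from the lists are up to 4 tested members with the smallest p in a comparison, and T, Mesp1, Bmp4 and Ttr as landmarks. The 5 most similar genes had a mean of at least 5 FPKM. Spink1, Hbb-bs and Hbb-bt of the lists were not found in the tables. Figures were drawn with matplotlib 3.10.9.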

Additional observations from a re-analysis of the deposited data

Results flagged for a closer look

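The P minus A difference of Id2 and Id3 had one sign in every embryo of some stages and the opposite sign in every embryo of others. Id2 was higher in P in both E6.0 embryos (mean 1.25, n = 2) and lower in both E7.0 embryos (mean -1.87, n = 2) and in all 4 E7.5 embryos (mean -2.25). Id3 was higher in P in both E5.5 embryos (mean 1.05, n = 2), and lower in all 6 E6.5 embryos (mean -0.64) and both E7.0 embryos (mean -1.40, n = 2). These differences between stages were not tested, and E6.0 Id2 and E6.5 Id3 did not pass the test on their own. No embryo lay far from the others in the 26 groups of 4 to 6 embryos checked.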

How the results depend on the processing

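At E6.5 the 2 Id genes called in A (Id1, Id2) were 2 in every alternative run, and the 2 in P were 2 in all but 1, falling to 1 without embryos 1 to 4. Over 582 alternatives for the 44 counts of called Id genes, 445 left the count about as it was, 114 lowered it and 23 raised it; the cause was not tested. The first variance trend gave 28 of the 43 calls of single Id genes and no other.

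Counts by stage follow. In A, the count at E5.5 (1) became 0 with an equal median or the stage fitted alone; at E6.0 (0) it became 1 with a pseudocount of 0.1; at E7.0 (1) it became 0 with that pseudocount, an equal sum, no most proximal section, sections scaled to the whole embryo, end minus end, or the first variance trend; at E7.5 (2) it became 0 without the most proximal section and 1 without embryos 1 to 3, without embryos 4 to 6 or with the first variance trend. The change of slope in A gave 1 without E7.5 embryos 4 to 6, and that in P 1 without the most proximal section.

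In P, the count at E5.5 (2) became 0 with no filter, an equal median, end minus end or the stage alone, and 1 with an equal sum, no most proximal section or the first trend. At E6.0 (2) it became 1 with the pseudocount, no filter or the first trend, and 0 without the most proximal section. At E7.0 (1) it became 0 under 6 of these settings and 2 with the stage alone. At E7.5 (2) it became 1 with the pseudocount or no most proximal section and 0 with embryo 3 alone, where the lone embryo is assumed to vary like the other stages.

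For P minus A, with no replicate block (A and P unpaired) the count became 0 at E5.5 (1) and E7.0 (2), and in the same unpaired fit it became 0 for endoderm at E7.0 (2) and E7.5 (1), mesoderm (1) and MP against MA (1); no other count of calls changed without the pairing. At E7.0 the count was 1 with the pseudocount, no filter, an equal sum, the first trend or the stage alone. At E7.5 (1) it was 2 with the A/P library as distal end and 0 with embryo 3 alone, and with the stage alone it was 1 at E6.0 and E6.5 (0 each) and 0 at E5.5; an equal median also gave 0 at E5.5. The slope difference at E7.0 (0) gave 1 with the stage alone.

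The layers with 2 embryos were least stable. Endoderm at E7.0 gave 1 with the pseudocount, no filter, either scaling or the first trend, at E7.5 it gave 0 with the first 4 and 2 with the stage alone, and at E6.5 (1) it gave 2 with an equal sum or the stage alone. Mesoderm gave 0 with the pseudocount, no filter, either scaling or the first trend, and MP against MA 0 with the first trend. The count in EP against EA at E7.0 (0) was 2 with the stage alone. EA, EP and MP slopes (1 to 3 called) fell to 0 or 1 at 1 stage or more with the pseudocount, no filter, an equal sum, no most proximal section, end minus end, the first trend or the stage alone; EA gave 3 at E7.5 and up to 2 at E7.0 with an equal median or the stage alone. The level of Id genes in P (1) gave 0 with FPKM as deposited, an equal median, without E6.5 embryos 1 to 4 and without E7.5 embryos 4 to 6, and that in A 0 without E6.5 embryos 1 to 4.

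Leaving out 1 embryo gave counts of 2 to 2 in A at E5.5, 0 to 1 at E6.0 and E7.0; in P 1 to 1 at E5.5, 0 to 2 at E6.0 and 0 to 0 at E7.0; for the slope difference at E5.5 0 to 2; for P minus A 1 to 2 at E5.5 and E7.5 and 0 to 1 at E7.0; for endoderm 0 to 2 at E7.0 and 0 to 1 at E7.5; for mesoderm 0 to 1; for EP against EA at E6.5 0 to 3; for EA at E7.5 0 to 0; and for EP 1 to 1 at E6.5 and 0 to 0 at E7.0 and E7.5.

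Signs turned only for values that were not called. The Id1 slope difference at E6.5 was 0.44 with the pseudocount, 0.084 with an equal sum, 0.10 with an equal median, 0.26 without embryos 5 and 6, 0.57 without the most proximal section and 0.15 with the A/P library as distal end, and -0.22 to 0.21 leaving out 1 embryo (0.12 without embryo 3); at E7.5 it was 0.22 without the most proximal section. The Id3 slope difference at E6.5 was -0.38 to 0.0047 leaving out 1 embryo. P minus A at E6.5 without embryos 1 to 4 was -0.30 for Id1 and -0.32 for Id2, and leaving out 1 embryo it was -0.021 to 0.17 for Id2 and, at E7.5, -0.10 to 0.31 for Id1.

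Low FPKM is limited by depth that the tables do not state. With 2 embryos a call rests on a spread borrowed from other genes and, in most fits, from other stages. The slopes in M, MA and MP and the MP minus MA difference were fitted within their own stage, so no other stage informed their spread.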

Other observations

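The remaining values belong to regions in no comparison. In the lateral codes of E7.5 embryo 3 the proximal end of R2 held 214 FPKM of Id1, 135 FPKM of Id2, 957 FPKM of Id3 and 4.78 FPKM of Id4, and its distal end 0.56, 43.1, 160 and 0.27 FPKM. L1 went from 0.13 to 82.2 FPKM of Id1 and L2 from 3.18 to 122 FPKM. R1 went from 0.76 to 154 FPKM of Id1. At E7.0 the lateral code L held 0 and 4.55 FPKM of Id1 distally and 31.7 and 78.3 FPKM proximally in 2 embryos. Each of these lateral series ended higher than it began.

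In E7.5 embryo 4, whose layers carry the codes E1, E2, M1 and M2, Id1 went from 0 to 27.4 FPKM in E1, from 7.05 to 36.7 FPKM in E2, from 15.7 to 45.3 FPKM in M1 and from 0 to 35.5 FPKM in M2. In the VE code of 1 E6.0 embryo, which is visceral endoderm, Id1 went from 0 to 7.67 FPKM, Id2 from 1.24 to 8.77 FPKM and Id3 from 23.2 to 110 FPKM.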
